A study of Homo sapiens with 21 samples.

Results

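HepG2S1 and HepG2S3 are sorafenib-resistant derivatives of HepG2, an established human liver cancer cell line, and their gene expression was compared with each other. The comparison rests on 3 of the 21 RNA sequencing libraries of the series, namely the 1 library labelled HepG2S1 and the 2 labelled HepG2S3A and HepG2S3B, here called HepG2S3 libraries 1 and 2. Both lines were derived in culture by months of exposure to rising doses of sorafenib, both are labelled resistant, and both go back to the same parental HepG2, of which 2 untreated, sensitive libraries are set beside them. Neither the labels nor the methods say whether the lines are clones, and the presence of drug at harvest is not given in the sources used here. HepG2S1 has no replicate, and a second label gives both HepG2S3 libraries the same replicate number, as it does both HepG2 libraries. Any p-value therefore measures only the spread between these libraries, which may be technical.

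Sorafenib is a kinase inhibitor that blocks VEGF and PDGF receptors and the Raf kinases of the ERK pathway. Resistance to it in liver cancer cells is often described together with epithelial-to-mesenchymal transition (EMT), in which cells take down E-cadherin contacts and desmosomes and build vimentin filaments and extracellular matrix. Resistant lines raised from a common parental line share that history, so the genes in which they differ show how much such derivatives can diverge.

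HepG2S1 was the shallower library, with 9851195 counts on genes against 32008712 and 30639282 in HepG2S3. Values are CPM, the count of a gene scaled to the total count on genes of its library, and 3 counts, the smallest number taken as detected, correspond to 0.305 CPM in HepG2S1 and to 0.0937 and 0.0979 CPM in the HepG2S3 libraries. Intervals for HepG2S1 are 95% Wilson intervals and cover counting error only. The HepG2S1 library also differed in make-up. Of its reads, 28.5% did not map to a unique position, against 19.9% and 19.3% in HepG2S3, and small RNA and other minor gene types took 0.249% of its counts against 0.0324% and 0.0318%. Genes without a match in the annotation took 2.03% of its counts against 0.989% and 0.983%. The part of these differences in the results was not tested.

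The resistant lines were far more alike than either was to HepG2. Over 13676 genes with at least 1 CPM in HepG2S1 or in the mean of HepG2S3, the correlation across genes of log2(CPM + 1) was 0.965 between HepG2S1 and each HepG2S3 library, 0.997 between the HepG2S3 libraries, and between 0.746 and 0.762 with the HepG2 libraries. Over the same genes the median absolute difference of log2(CPM + 1) was 0.30 between HepG2S1 and the HepG2S3 mean and 0.10 between the HepG2S3 libraries. It was 0.86 between HepG2S1 and HepG2 and 0.88 between HepG2S3 and HepG2. These values against HepG2 were taken over other genes, those with at least 1 CPM in HepG2 or in the resistant line compared. Against the line averages of the other 14 cell lines of the series the correlation ranged from 0.773 to 0.840 for HepG2S1 and from 0.763 to 0.833 for HepG2S3. With HepG2 it was 0.754 and 0.760, lower than with any of those 14 lines, while HepG2 itself gave 0.720 to 0.788 with the same 14. The 13676 genes were picked by their level in the resistant lines, and genes are not independent replicates.

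The defining hepatocyte markers went with this. ALB, which encodes serum albumin, was at 16105 and 8261 CPM in the HepG2 libraries, at 0 counts in HepG2S1, and at 7.44 and 10.9 CPM in HepG2S3. HNF4A, the nuclear receptor that maintains hepatocyte identity, was at 226 and 211 CPM in HepG2, at 0.812 CPM in HepG2S1 and at 0.437 and 0.424 CPM in HepG2S3. APOA1 and TTR, a lipoprotein and a thyroid hormone carrier, were both at 0 counts in HepG2S1 and at no more than 0.469 CPM in HepG2S3. At this depth a gene with 0 counts in HepG2S1 can have up to 0.390 CPM by its interval. Neither resistant line thus showed the hepatocyte markers of its label, and 412 genes with at least 5 CPM in both HepG2 libraries were under 0.5 CPM in all 3 resistant libraries, while 381 showed the reverse. Whether each line descends from the HepG2 cells sequenced here was not tested.

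Between HepG2S1 and HepG2S3, edgeR found 97 genes higher in HepG2S1 and 17 lower, which is 0.529% and 0.0927% of the 18341 genes tested. The spread in this test was pooled over the 5 libraries of HepG2, HepG2S1 and HepG2S3, and HepG2S1 was assumed to vary like the others. A gene is said to have changed, or to be higher or lower without further words, only where the adjusted p of this test was under 0.05. The HepG2 libraries differed more from each other than the HepG2S3 libraries, with a chi-square of 87.6 against 12.9 for each degree of freedom. For example, MKI67, a marker of dividing cells, was at 145 and 14.2 CPM in the HepG2 libraries. The counts of calls depended on this choice. They became 2519 higher and 2738 lower with the spread from HepG2S1 and HepG2S3 alone, 300 and 462 with DESeq2, 31 and 3 without HepG2S3 library 1, 34 and 4 without library 2, 2353 and 2752 without HepG2 library 1, and 2340 and 2768 without library 2. All 114 called genes kept their direction in each of these fits. Every fit used the same HepG2S1 library, so a kept direction is no independent support.

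By size alone, with no test, 352 genes (2.57% of 13676) were at least 2-fold higher in HepG2S1 and outside both HepG2S3 libraries, and 370 (2.71%) were at least 2-fold lower. Between the HepG2S3 libraries themselves 11 genes differed by that much. HepG2 lay nearer to HepG2S3 for 255 of the 352 genes that were higher, and nearer to HepG2S1 for 250 of the 370 that were lower. In both directions the line with less transcript was more often the one nearer to HepG2. Among the calls, 62 of the 97 higher and 16 of the 17 lower genes were protein coding. Another 25 of the higher genes had no match in the annotation and 4 were small RNA or other minor types, the groups in which the HepG2S1 library was rich, and the part of that make-up in these calls was not tested.

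**Figure D1:**
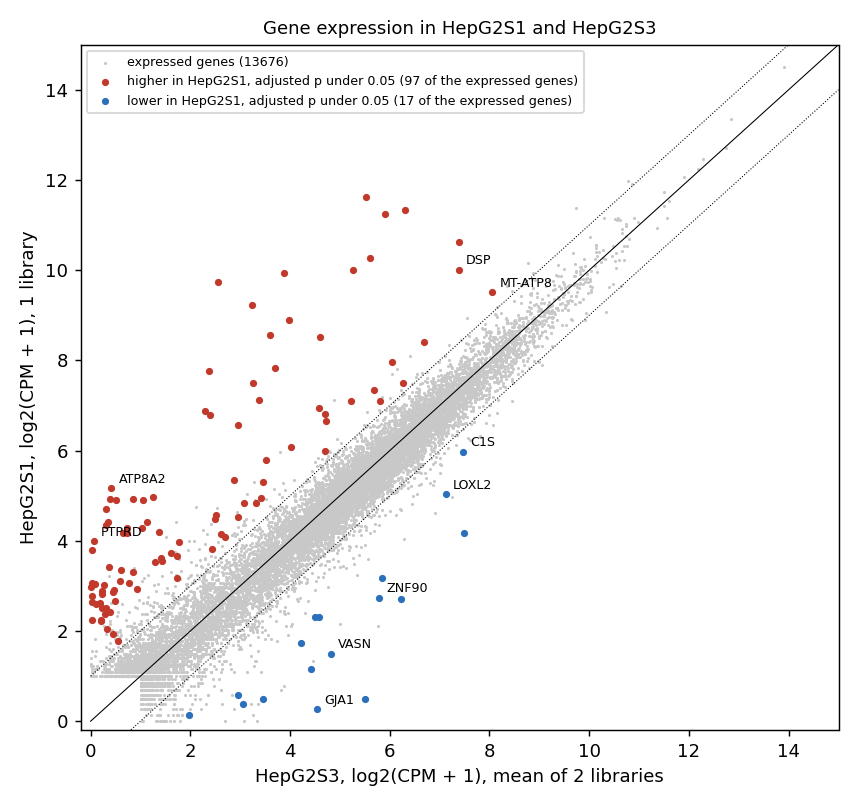
Expression of 13676 genes in HepG2S1 (vertical axis, 1 library) and HepG2S3 (horizontal axis, mean of 2 libraries), both as log2(CPM + 1). Each point is a gene, red and blue points are the 97 genes higher and 17 lower in HepG2S1 with an edgeR adjusted p under 0.05, the solid line is equality and the dotted lines are 2-fold. Many red points lie at the left edge, among genes near 0 in HepG2S3.

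DSP encodes desmoplakin, which ties desmosomes to the keratin filaments. It was at 1028 CPM in HepG2S1 (interval 1008 to 1049), at 167 and 166 CPM in HepG2S3, and at 1121 and 1197 CPM in HepG2. HepG2S1 thus held the level of the parental line, while HepG2S3 was lower in both libraries, and the difference of 6.18-fold passed the test (log2 fold change 2.68 ± 0.15 SE, adjusted p = 0.00488). SPINT1, a membrane inhibitor of the matriptase and hepsin proteases, was at 10.6 CPM in HepG2S1, at 1.31 and 1.57 CPM in HepG2S3 and at 16.3 and 19.3 CPM in HepG2 (log2 fold change 2.92 ± 0.25, adjusted p = 0.0190). POF1B, an actin-binding protein of epithelial junctions, had 127 counts in HepG2S1 and 0 and 1 in the HepG2S3 libraries, a ratio of 808 with a counting interval of 142 to 32148. SPINK5, a protease inhibitor of stratified epithelia, had 68 counts in HepG2S1 and none in HepG2S3, and was at least 70.5-fold higher against 3 counts in a HepG2S3 library. POF1B and SPINK5 were at no more than 0.143 CPM in HepG2, so for them HepG2S1 was the line that stood apart.

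Wnt signaling held 2 of the largest differences. FZD4, a receptor for Wnt ligands and norrin, was at 138 CPM in HepG2S1 and at 10.2 and 8.45 CPM in HepG2S3, 14.8-fold lower in mean. The HepG2 libraries were at 146 and 74.6 CPM, so HepG2S1 lay within them. NKD2, which restrains Wnt signaling through Dishevelled, had 71 counts in HepG2S1 and 2 in each HepG2S3 library, a ratio of 113 (counting interval 42.2 to 426), against 7.70 and 4.48 CPM in HepG2. These were the 2 called genes among 36 tested Wnt and beta-catenin genes. Over the 25 expressed genes of this list the median difference was -0.02, against -0.09 over all expressed genes. The same list held genes at the other end, among them DKK1, a secreted Wnt antagonist chosen here after its values were seen, at 114 CPM in HepG2S1 and at 239.5 and 327 CPM in HepG2S3 (adjusted p = 0.133).

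Matrix genes were also among them. COL8A1, a short-chain collagen of basement membranes, was at 18.5 CPM in HepG2S1 and at 0.781 and 0.555 CPM in HepG2S3 (log2 fold change 4.83 ± 0.33, adjusted p = 0.00849). COL6A3, a chain of the beaded filament collagen VI, was at 9.64 CPM against 0.187 and 0.392 CPM (log2 fold change 5.09 ± 0.47, adjusted p = 0.0243). LUM, which encodes the proteoglycan lumican, was at 135 CPM against 32.3 and 40.7 CPM (log2 fold change 1.94 ± 0.20, adjusted p = 0.0305) and was at no more than 0.0287 CPM in HepG2. HepG2S1 lay above both HepG2S3 libraries in each of the 3 genes, which the rule that chose COL8A1 and COL6A3 required. LUM was named as a called member of its list. Of 27 tested collagen chains, COL8A1 and COL6A3 were called and the median difference of the 22 expressed was 0.08.

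Other leading genes had varied roles. SCIN, a calcium-dependent actin-severing protein, was at 29.3 CPM in HepG2S1 and at 0.375 and 0.228 CPM in HepG2S3. ESRRG, an orphan nuclear receptor of oxidative metabolism, was at 19.4 CPM against 0.250 and 0.228 CPM. Both were near 0 in HepG2 as well, at no more than 0.246 CPM. PTPRD, a receptor-type tyrosine phosphatase, had 147 counts in HepG2S1 and 1 and 2 in HepG2S3, a ratio of 312 with a counting interval of 105 to 1528. MAPK4, an atypical MAP kinase, was at 30.5 CPM against 1.53 and 1.24 CPM, and PLEKHG1 at 18.6 against 1.31 and 0.751 CPM. ATP8A2, a phospholipid flippase, was at 34.8 CPM against 0.469 and 0.196 CPM and had the largest difference of all named genes, 4.76 on the log2(CPM + 1) scale. CXCL14 and CCL28, chemokines of epithelia, were at 7.41 and 6.09 CPM in HepG2S1 and at no more than 0.196 CPM in HepG2S3. PRRG3, a vitamin K-dependent membrane protein, had 58 counts against 0 and 1. ALPI, intestinal alkaline phosphatase, was at 29.0 CPM against 0.469 and 0.359 CPM, and its near-identical relatives could share its reads. The adjusted p of these genes in edgeR ran from 0.00455 for SCIN and ESRRG to 0.0327 for PLEKHG1.

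A stricter view asks which coding genes had at least 5 CPM in one line and under 0.5 CPM in the other. In HepG2S1 and not HepG2S3, 11 of them were under 0.5 CPM in both HepG2 libraries too. They were SCIN, CNTN1, POF1B, PRRG3, SPINK5, ECHDC3, CXCL14, CCL28, PTPRD, ALPI and ESRRG. For another 5, KCNH2, ATP8A2, NKD2, COL6A3 and LRRC69, HepG2 lay between these bounds or was split, and KCNH2 was not called. MPZL2, an adhesion protein of epithelia, and TCIM were the 2 that also had at least 5 CPM in both HepG2 libraries. MPZL2 was at 46.1 and 47.1 CPM in HepG2, at 5.08 CPM in HepG2S1 and at 0.125 and 0.0326 CPM in HepG2S3. TCIM was at 118 and 115 CPM in HepG2, at 7.11 CPM in HepG2S1 and at 0.187 and 0.228 CPM in HepG2S3. For both genes HepG2S1 thus held only part of the parental level. In the reverse direction, APOB, ALB and RNF144A had at least 5 CPM in HepG2 and HepG2S3 and under 0.5 CPM in HepG2S1. APOB and ALB were not called, and their HepG2S3 means were 9.25 and 9.17 CPM against 12945 and 12183 CPM in HepG2. GJA1, TNC and CDH3 were under 0.5 CPM in HepG2 too. For 3 more, CRYM, IP6K3 and TSHZ2, HepG2 lay between these bounds or was split. IP6K3 and TSHZ2 were not called, and IP6K3 had 4 counts in HepG2S1 against 952 and 794 in HepG2S3. TNC, the matrix protein tenascin-C, was at 0.102 CPM in HepG2S1 and at 11.3 and 5.81 CPM in HepG2S3, and CDH3, P-cadherin, at 0.305 against 10.5 and 6.17 CPM. Neither TNC nor CDH3 passed the edgeR test, with adjusted p = 0.167 for TNC and 0.129 for CDH3.

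GJA1 led the genes that were lower in HepG2S1. It encodes connexin 43, the main gap junction channel of many cell types, and had 2 counts in HepG2S1 and 658 and 741 in HepG2S3. The edgeR log2 fold change was -6.70 (adjusted p = 0.0247). The ratio was 110 with a counting interval of 30.4 to 909, and both HepG2 libraries were at 0. Connexin 43 transcript was thus found in HepG2S3 and hardly in either relative.

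MAOA, monoamine oxidase A, was at 5.58 CPM in HepG2S1, at 75.2 and 72.4 CPM in HepG2S3 and at 41.2 and 70.9 CPM in HepG2. VASN, vasorin, a membrane protein that binds TGF-beta, was at 1.83 CPM against 28.3 and 25.8 CPM in HepG2S3 and 48.5 and 53.002 CPM in HepG2. For both genes HepG2S1 was the line that lay apart from HepG2. RNF144A, a ubiquitin ligase, had 4 counts in HepG2S1 and was at 10.7 and 9.27 CPM in HepG2S3 against 52.9 and 45.3 CPM in HepG2. CPPED1, a phosphatase, was at 3.96 CPM against 20.3 and 25.5 CPM, below 243 and 217 CPM in HepG2, so its level fell in the order HepG2, HepG2S3, HepG2S1 with no overlap. STXBP6, which binds SNARE proteins, was at 3.96 CPM against 19.4 and 23.8 CPM.

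Other genes were lower in HepG2S1 but most of them were low in HepG2 as well. IL20RB, a receptor subunit for IL-20 family cytokines, was at 17.2 CPM in HepG2S1, at 199.8 and 158 CPM in HepG2S3 and at no more than 0.603 CPM in HepG2. LOXL2, which crosslinks collagen, was at 31.7 CPM (interval 28.3 to 35.4) against 151 and 125 CPM, and at 4.37 and 4.28 CPM in HepG2 (log2 fold change -2.07 ± 0.21 SE, adjusted p = 0.0316). KRT34, a hair keratin with close paralogs, was at 8.02 against 54.2 and 58.6 CPM, PRSS12, a secreted protease, at 2.33 against 17.9 and 17.3 CPM, and CRYM, a thyroid hormone-binding protein, had 3 counts against 256 and 203. C1S, a complement protease, was at 62.0 CPM against 175 and 178 CPM, with HepG2 at 69.7 and 73.4 CPM. HepG2S1 lay below both HepG2S3 libraries in all 6 genes by the rule that chose them.

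**Figure D2:**
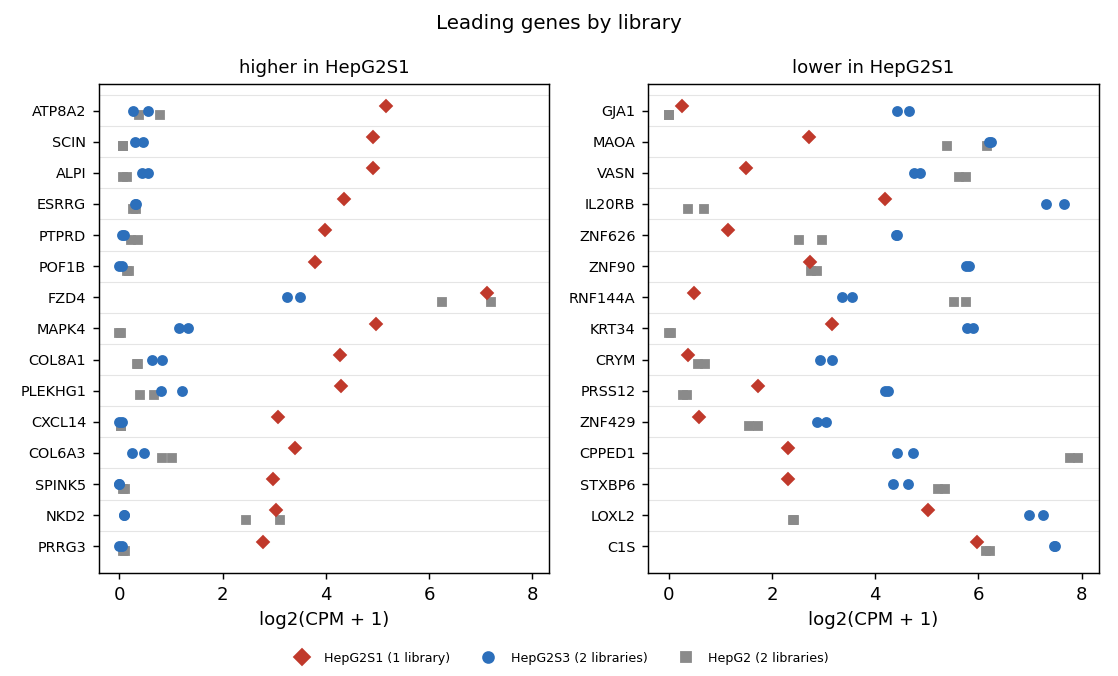
The 15 coding genes with the largest difference in each direction among those called, as log2(CPM + 1) on the horizontal axis, with 1 symbol per library. Red diamonds are HepG2S1, blue circles the 2 HepG2S3 libraries and grey squares the 2 HepG2 libraries. The red diamond lies outside both blue circles for every gene, from ATP8A2 (4.76 higher) to C1S (1.49 lower), by the rule that chose them.

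The EMT genes of the study differed little apart from these. Of its 12 tested epithelial genes, DSP and SPINT1 were higher in HepG2S1 and none was lower, and the 10 expressed had a median difference of 0.35, with 8 above 0. EPCAM, an epithelial adhesion molecule, was at 5.99 CPM in HepG2S1 and at 2.75 and 3.003 CPM in HepG2S3, well under the 197 and 233 CPM of HepG2, and did not pass the test (adjusted p = 0.125). CDH1, which encodes E-cadherin, was lost from both lines, with 3 counts in HepG2S1 and 15 and 18 in HepG2S3 against 107 and 182 CPM in HepG2. VIM, vimentin, was at 1215 CPM in HepG2S1 and at 1137 and 1094 CPM in HepG2S3 against 0.109 and 0.0861 CPM in HepG2. CDH2, N-cadherin, was at 262 CPM against 203 and 229 CPM. The log2 fold changes between the lines were 0.17 ± 0.16 for VIM and 0.33 ± 0.28 for CDH2, and neither passed. Of the 31 tested mesenchymal genes, LOXL2 was lower in HepG2S1 and none was higher, with a median difference of -0.05 over the 25 expressed. Among 17 tested EMT transcription factors none was called, and the largest differences were SNAI2 at 30.5 against 57.0 and 48.7 CPM and FOXC1 at 72.9 against 42.4 and 45.2 CPM.

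Genes that write and erase DNA methylation, the measure at the centre of the study, did not pass the test either. DNMT1, the maintenance methyltransferase, was at 226 CPM in HepG2S1 and at 225 and 235 CPM in HepG2S3. DNMT3A was at 10.2 against 10.97 and 8.65 CPM and DNMT3B at 7.31 against 8.94 and 6.85 CPM, so that HepG2S1 lay between the HepG2S3 libraries for all 3 methyltransferases. Of the TET demethylases, TET1 was near 0 in each line with 2, 15 and 14 counts, TET2 was at 31.4 against 31.1 and 34.7 CPM and TET3 at 39.8 against 26.2 and 27.4 CPM. The adjusted p ranged from 0.311 for TET3 to 0.994 for TET2 and DNMT3B, and none of the 20 tested members of the wider list was called.

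Junction genes went both ways. Among 35 tested, DSP was higher and GJA1 lower in HepG2S1, and the median difference of the 27 expressed was 0.19, with 20 above 0. Outside the naming rule, the desmosome and adherens junction protein JUP was at 333 CPM against 186 and 182 CPM (adjusted p = 0.0952) and the tight junction claudin CLDN1 at 52.9 against 23.3 and 20.1 CPM (adjusted p = 0.0574). Of 15 tested keratins none was called. KRT6A, which shares near-identical copies, was at 61.6 CPM against 17.3 and 8.68 CPM, and KRT16 at 12.8 against 39.1 and 31.1 CPM.

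MHC class I and interferon-stimulated genes stood below the general level in HepG2S1 without a call among 54 tested. The median difference was -0.40, against -0.09 over all expressed genes, with 32 of 42 below 0. HLA-B, a class I heavy chain that presents peptides to T cells, was at 15.4 CPM in HepG2S1 and at 91.8 and 62.9 CPM in HepG2S3 (log2 fold change -2.28 ± 0.37, adjusted p = 0.0878). HLA-C, another class I heavy chain, was at 31.1 against 101 and 75.2 CPM (adjusted p = 0.114). HepG2S1 lay below both HepG2S3 libraries for both genes, which share near-identical stretches and can exchange reads, and the share of reads without a unique position was higher in HepG2S1, as given above. The part of this in the HLA values was not tested.

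The kinases that sorafenib blocks were not called among 8 tested. The 6 expressed all lay below 0, with a median of -0.55. DDR2, a collagen receptor kinase, was at 2.64 CPM in HepG2S1 against 10.7 and 7.93 CPM, and PDGFRB at 2.03 against 7.69 and 6.07 CPM, with adjusted p of 0.135 and 0.549. Of 29 tested output genes of the ERK pathway downstream of Raf, SPRY4, a feedback inhibitor, was higher in HepG2S1, at 2.84 against 0.344 and 0.392 CPM (log2 fold change 2.99 ± 0.28, adjusted p = 0.0252), still far under the 114 and 99.9 CPM of HepG2. The median of the 26 expressed was 0.10. Of 27 tested ABC transporters, the drug efflux family, none was called, although ABCC9, a potassium channel subunit, was at 25.9 against 4.16 and 2.51 CPM (adjusted p = 0.0599).

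Secreted signals showed single large values and no shift of their lists. BMP2, a bone morphogenetic protein, was at 275 CPM in HepG2S1 and at 84.8 and 82.8 CPM in HepG2S3, with HepG2 at no more than 0.258 CPM (adjusted p = 0.0561), and INHBE, an activin subunit, at 9.75 against 37.2 and 24.8 CPM. None of 43 tested TGF-beta pathway genes was called, and the median of the 36 expressed was -0.13. Of 52 tested growth factors and receptors none was called, with IGFBP6 at 11.1 against 50.1 and 42.6 CPM and IGFBP3 at 38.1 against 99.2 and 123 CPM, both binding proteins of insulin-like growth factors. CCL28 was the 1 called gene among 39 inflammatory cytokines and receptors.

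No gene was called among 44 cell cycle genes (median -0.05) or 38 glycolysis and hypoxia genes (-0.27). The same held for 33 genes of cholesterol and fatty acid synthesis (0.01) and 42 ferroptosis, NRF2 and glutathione genes (-0.31). It also held for 36 G1 regulators and p53 targets (-0.41) and 34 stress response genes (-0.04). Here and below, medians are over the expressed members of a list, which can be fewer than those tested. Within these lists, CA12, a carbonic anhydrase, was at 3.96 CPM in HepG2S1 against 24.3 and 19.6 CPM in HepG2S3 (adjusted p = 0.177). HK1, a hexokinase, was at 96.5 CPM against 250.3 and 238 CPM, DDIT4, a stress-induced inhibitor of mTORC1, at 541 against 1363 and 1237 CPM, and FASN, fatty acid synthase, at 347 against 158 and 184 CPM. The adjusted p of these 3 were 0.135, 0.0986 and 0.0918. CDKN2B and CDKN2C, inhibitors of CDK4 and CDK6, were at 49.8 against 110.5 and 88.1 CPM and at 44.5 against 101 and 95.5 CPM, with adjusted p of 0.547 and 0.530. MKI67 was at 811 CPM in HepG2S1 against 424 and 367 CPM in HepG2S3 (adjusted p = 0.689) and was the 1 cell cycle gene that was at least 2-fold higher, with none at least 2-fold lower. Over the whole list the summed level was 10980.4 CPM in HepG2S1 and 11997 and 11634 CPM in HepG2S3, while the HepG2 libraries were at 3058 and 895 CPM and so carried a wide spread into the test.

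The remaining lists held few calls. LUM was the 1 called gene among 46 tested matrix glycoproteins and proteoglycans (median -0.01) and among 14 tested markers of other lineages (0.11), and LOXL2 the 1 among 34 matrix proteases, inhibitors and crosslinkers (-0.14). None was called among 17 integrins (-0.12), where ITGA1, a collagen-binding subunit, was at 161 CPM in HepG2S1 against 75.2 and 71.8 CPM and ITGA2 at 40.5 against 17.3 and 21.3 CPM. None was called among 33 contractile, caveola and YAP target genes (-0.01), with the YAP target ANKRD1 at 44.3 against 108 and 146 CPM. Among 23 hepatocyte transcription factors (-0.04 over 11 expressed) none was called, and CEBPB was at 212 against 109 and 105 CPM. None was called among 42 hepatocyte enzymes and transporters (-0.32 over 11 expressed). CPS1, the first enzyme of the urea cycle, was at 2228 CPM against 1471 and 1547 CPM and at 61.8 and 42.9 CPM in HepG2. Among 18 progenitor and liver cancer stem cell markers (0.17) none was called, with ALDH1A1 at 8.83 against 2.94 and 1.21 CPM. None was called among 17 BCL2 family genes (-0.26), where BOK, a pro-apoptotic member, was at 3.35 against 15.5 and 14.9 CPM (adjusted p = 0.0652). Nor was any called among 23 imprinted genes (-0.11 over 17 expressed) or 31 HOX genes (-0.13 over 21). The same held for 11 cancer-testis genes (-0.93 over 6) and 6 metallothioneins (-0.17 over 3). The cancer-testis genes TKTL1 and MAGEA12, with 1 and 0 counts in HepG2S1, counted as expressed only through HepG2S3. MEST, an imprinted gene, was at 13.4 against 30.6 and 33.5 CPM, and MT2A, a metallothionein with close paralogs, at 253 against 485 and 522 CPM.

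The 13 genes for respiratory chain subunits in mitochondrial DNA had a median difference of 0.64, but the HepG2S3 libraries differed from each other by a median of 0.50. MT-ATP8, a subunit of ATP synthase, was the 1 called, at 726 CPM against 294 and 237 CPM (log2 fold change 1.502 ± 0.19, adjusted p = 0.0486). It overlaps MT-ATP6, which was at 1819.9 CPM against 1901 and 1331 CPM and not called, so reads of the shared stretch are uncertain. MT-CO1 and MT-CO3 lay between the HepG2S3 libraries.

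**Figure D3:**
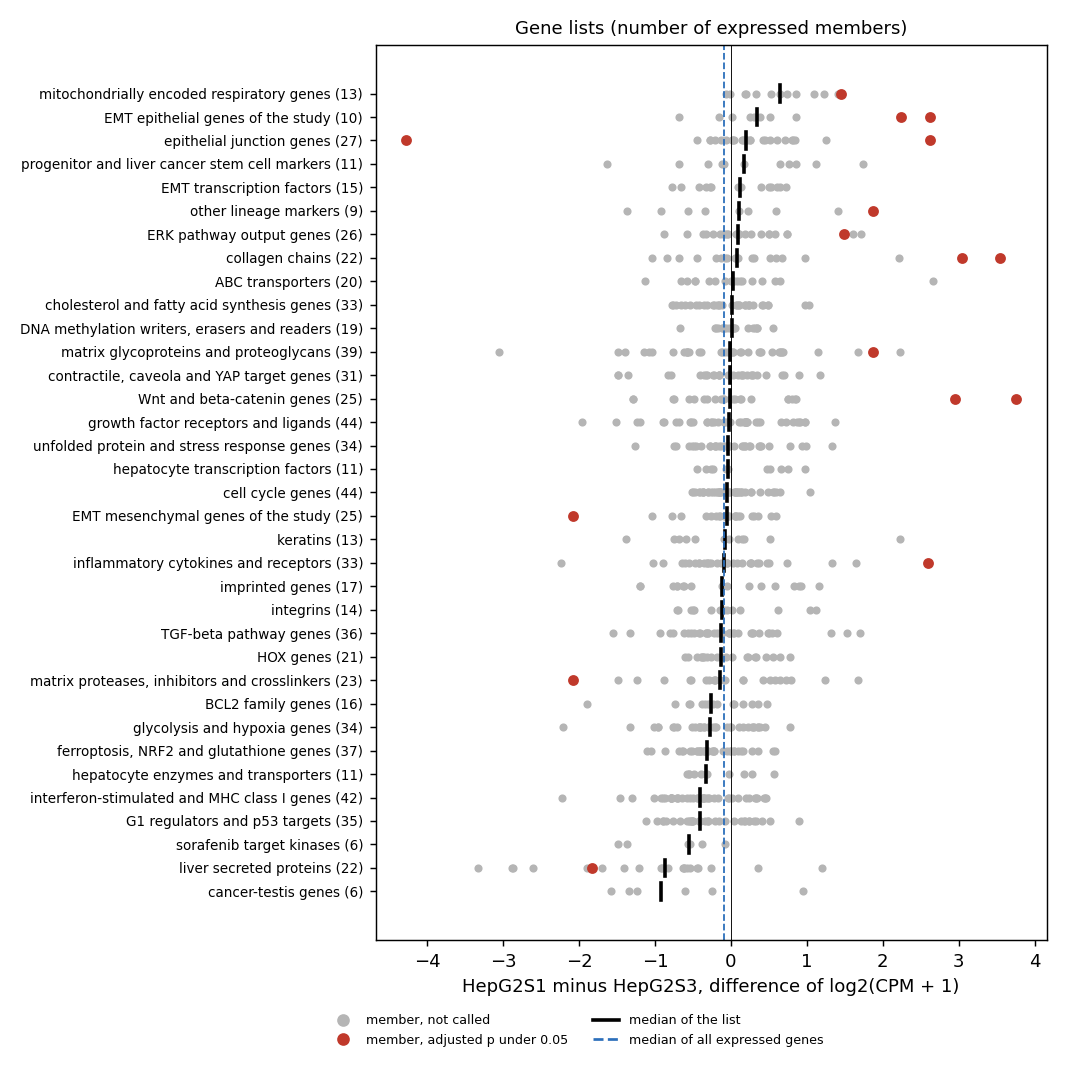
Difference of log2(CPM + 1), HepG2S1 minus HepG2S3, for each expressed member (grey points) of the lists with at least 5 expressed members, with the median of each list as a black bar. Red points are members with an edgeR adjusted p under 0.05, and the blue dashed line is the median over all expressed genes, -0.09. List medians lie between -0.93 for cancer-testis genes and 0.64 for mitochondrially encoded genes.

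Of 46 tested liver secreted proteins, ITIH2, a hyaluronan-binding plasma protein, was lower in HepG2S1, with 1 count against 95 and 88. Its level was only 2.97 and 2.87 CPM in HepG2S3, against 3488 and 3366 CPM in HepG2. The 22 expressed had a median of -0.86, with 20 of them below 0. A member counted as expressed with at least 1 CPM in either line. ALB, AFP, APOB, SERPINA1, ITIH2 and others passed only through HepG2S3, so the rule itself fixed their sign. The median is therefore no result about the list. GPC3, a fetal liver antigen, had 0 counts in HepG2S1 and 45 and 91 in HepG2S3, against 4346 and 3688 CPM in HepG2. To describe HepG2 transcripts at trace level, whatever their function, coding genes were taken that had at least 100 CPM in both HepG2 libraries, at most 3 counts in HepG2S1 and under 20 CPM in both HepG2S3 libraries, a rule set after these values were seen. There were 72. Their summed level was 0.0776% of the HepG2 mean in HepG2S3 library 1 and 0.104% in library 2, against 0.00886% in HepG2S1, where the rule itself kept it low. APOB was at 5.78 and 12.7 CPM, AFP at 11.7 and 3.23 CPM and SERPINA1 at 3.25 and 7.70 CPM in the HepG2S3 libraries, against 0.305, 0 and 0 CPM in HepG2S1. In bulk libraries, few cells with much of a transcript and many cells with little cannot be told apart, and the source of these traces was not tested. Without the 72 genes, 359 genes in place of 370 were at least 2-fold lower in HepG2S1.

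Differences also ran along the chromosomes. Median differences over the expressed genes of whole chromosomes ranged from -0.27 on chromosome 14 to 0.29 on chromosome 5, with 0.20 on chromosomes 8 and 20 and 0.17 on chromosome 15, while the HepG2S3 libraries differed from each other by -0.07 to 0 on the autosomes and X. On chromosome 5, 492 of 613 genes were above 0. In 288 windows of 10 Mb with at least 10 expressed genes, the median ranged from -1.21 to 0.64, and 229 of them lay outside the range of -0.14 to 0.08 that the HepG2S3 libraries spanned against each other. The median over all windows was itself -0.16, and that over all expressed genes -0.09, so a window below that range need not differ from the rest. Many of the window differences were small and held over neighbouring windows.

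Of the blocks outlined here, the one with the highest median was on chromosome 8 from 60 to 110 Mb (GRCh37, the hg19 build), where 115 of 126 expressed genes were above 0 and the median was 0.53. The HepG2S3 libraries differed there by 0.01. Relative to HepG2, the median of the block was 0.15 in HepG2S1 and -0.39 in HepG2S3. The 5 windows in it had medians between 0.51 and 0.64. Before 50 Mb on the same chromosome the median was -0.23, with 41 of 155 genes above 0. Within the block, MTDH, an RNA-binding protein of the endoplasmic reticulum, was at 176 CPM against 83.9 and 87.4 CPM, PABPC1, the poly(A)-binding protein, at 800.0 against 353 and 303 CPM, YTHDF3, a reader of methylated adenosine in RNA, at 90.3 against 44.3 and 45.4 CPM and the ubiquitin ligase WWP1 at 56.6 against 31.6 and 30.0 CPM. None of these passed the test (adjusted p from 0.0565 to 0.117), and 4 of the 126 genes did. On chromosome 11 the median changed from -0.16 before 80 Mb to 0.31 beyond it, and on chromosome 20 it was 0.26 up to 50 Mb. The blocks were outlined after their values were seen. The study sequenced the genomes of its lines at low coverage. It reports small copy number differences of resistant from parental lines, except in the HepG2-derived pairs. DNA copy number was not analysed here, and its part in these shifts was not tested.

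**Figure D4:**
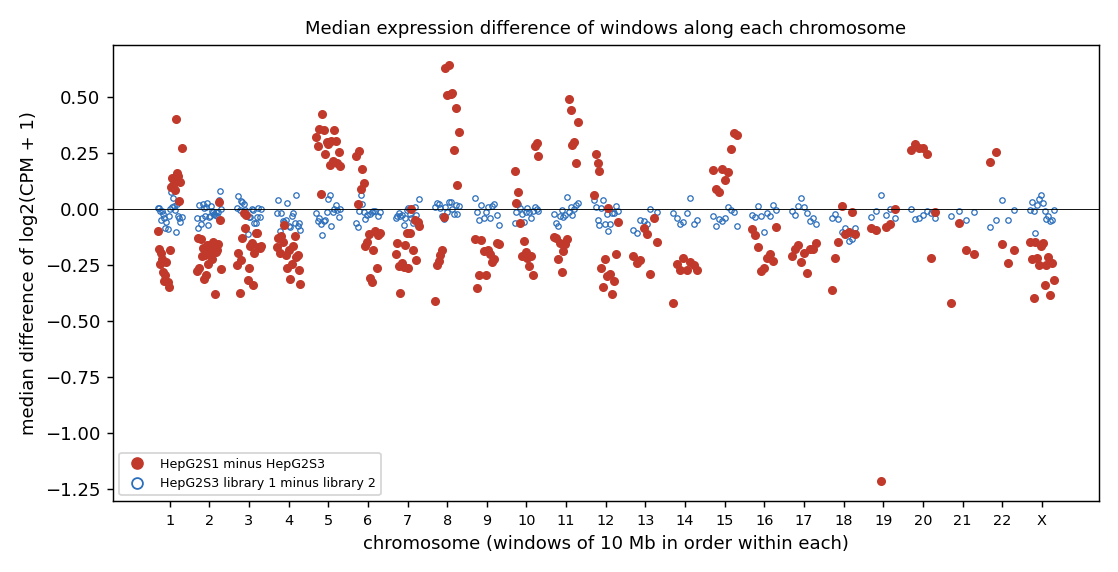
Median difference of log2(CPM + 1) over the expressed genes of windows of 10 Mb, in order along each chromosome (horizontal axis). Red points are HepG2S1 minus HepG2S3, and open blue points are HepG2S3 library 1 minus library 2. Runs of at least 4 neighboring red points lie above 0 on chromosomes 1, 5, 6, 8, 11, 12, 15 and 20, and a lone window on chromosome 19 lies at -1.21.

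The window that stood farthest apart was on chromosome 19 from 20 to 30 Mb, with a median of -1.21 over 25 genes, 23 of them below 0. Its neighbours were at -0.09 and -0.08. It holds a cluster of KRAB zinc finger genes, a primate-expanded family of DNA-binding repressors that act largely on transposable elements and lie in tandem arrays of near relatives. The 23 coding ZNF genes of the window had a median of -1.21, with 13 at least 2-fold lower and none at least 2-fold higher in HepG2S1. The 145 other expressed ZNF genes of chromosome 19 had a median of -0.04 with 1 at least 2-fold lower, and the 202 of other chromosomes had 0.01 with 2. Relative to HepG2 the cluster was higher in HepG2S3, by a median of 1.37, and by 0.29 in HepG2S1.

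Of the 17 genes called lower, 3 lie in this cluster. ZNF90 was at 5.68 CPM in HepG2S1 (interval 4.38 to 7.38), at 55.5 and 53.2 CPM in HepG2S3 and at 6.30 and 5.80 CPM in HepG2 (log2 fold change -3.21 ± 0.23, adjusted p = 0.00909). ZNF626 was at 1.22 CPM against 20.1 and 20.6 CPM, with HepG2 at 4.72 and 6.83 CPM, and ZNF429 at 0.508 CPM against 7.25 and 6.36 CPM, with HepG2 at 2.32 and 1.95 CPM. HepG2S1 was thus below both HepG2 libraries, and HepG2S3 above them, in all 3, although for ZNF90 the interval of HepG2S1 covered both HepG2 values. Among the uncalled, ZNF676 was at 0.711 CPM against 14.2 and 13.3 CPM, with HepG2 at no more than 0.164 CPM, and ZNF91 at 5.38 against 20.4 and 18.8 CPM. The shift was not uniform. ZNF714, at 44.9 CPM against 45.8 and 43.5 CPM, and ZNF431, at 21.0 against 22.0 and 22.0 CPM, lay among these genes with almost equal levels in both lines, and both were above HepG2. UQCRFS1, the Rieske subunit of complex III and the 1 gene of the window outside the family, was at 81.5 against 99.2 and 102 CPM. Reads can be exchanged between such near relatives, so single values in the cluster are uncertain.

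The upstream sequence of the 3 called genes shows how close these relatives are. The 250 bases before each start site are given from RefSeq (GRCh38.p14), 5′ to 3′ on the strand of the gene, with the longest runs of bases that all 3 share, 2 of equal length, in capitals.
ZNF90 (chr19:20077750-20077999, plus strand): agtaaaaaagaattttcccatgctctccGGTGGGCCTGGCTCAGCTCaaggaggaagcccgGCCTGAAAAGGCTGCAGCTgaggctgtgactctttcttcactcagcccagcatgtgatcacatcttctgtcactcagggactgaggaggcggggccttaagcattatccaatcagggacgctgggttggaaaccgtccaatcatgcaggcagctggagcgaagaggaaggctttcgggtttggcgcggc
ZNF626 (chr19:20661572-20661821, minus strand): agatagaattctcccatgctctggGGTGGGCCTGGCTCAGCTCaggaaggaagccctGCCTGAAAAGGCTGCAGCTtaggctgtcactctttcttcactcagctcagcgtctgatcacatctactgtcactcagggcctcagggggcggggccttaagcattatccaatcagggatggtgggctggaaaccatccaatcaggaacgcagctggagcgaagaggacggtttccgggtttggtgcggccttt
ZNF429 (chr19:21505352-21505601, plus strand): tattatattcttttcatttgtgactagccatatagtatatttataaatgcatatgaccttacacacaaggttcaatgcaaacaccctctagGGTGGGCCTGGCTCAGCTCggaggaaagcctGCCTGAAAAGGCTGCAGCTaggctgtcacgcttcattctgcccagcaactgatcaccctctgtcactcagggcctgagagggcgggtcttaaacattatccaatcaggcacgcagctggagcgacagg
Both shared runs are 19 bases long. The first, GGTGGGCCTGGCTCAGCTC, ends 203, 207 and 140 bases before the start in the order given, and the second, GCCTGAAAAGGCTGCAGCT, ends 170, 174 and 109 bases before it. On either strand the first was found in 11 of 35116 such windows (0.0313%) and the second in 6 (0.0171%). Of the 20 coding ZNF genes of the cluster that matched by symbol, 8 held the first run and 4 the second. The first was present in 3 of 11 matched genes that were at least 2-fold lower in HepG2S1 and in 5 of 9 that were not, and the second in 4 of 11 and 0 of 9. The 3 genes that chose the runs are among those counted as lower, so these shares are a description of the letters only.

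**Figure D5:**
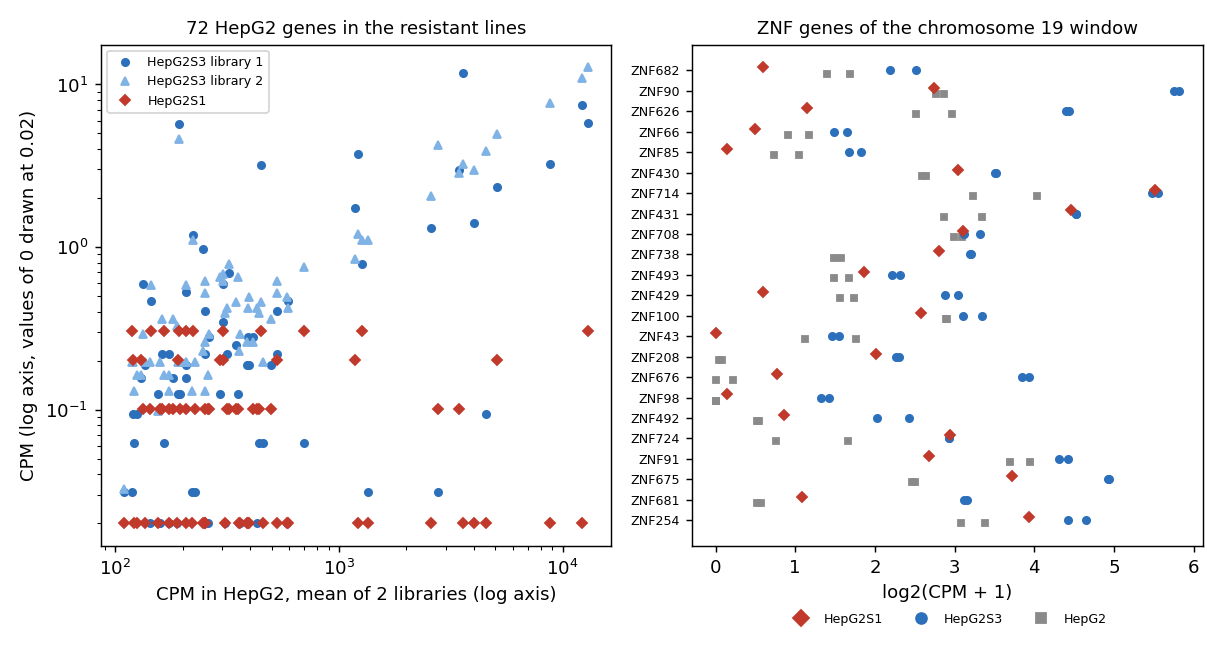
Left, 72 coding genes abundant in HepG2, with their CPM in HepG2 on the horizontal and in each resistant library on the vertical log axis. Right, log2(CPM + 1) of the 23 expressed coding ZNF genes of the chromosome 19 window in their order along the chromosome, with HepG2S1 as red diamonds, HepG2S3 as blue circles and HepG2 as grey squares. On the left, values of 0 are drawn at the bottom and HepG2S1 stays at 3 counts or fewer by the rule, and on the right HepG2S1 is below the HepG2S3 mean for 21 of 23 genes.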

How the data were processed

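RNA of cultured cells was sequenced. The deposited files hold raw read counts for 53515 Ensembl genes, 1 file per library, which the authors had not normalized. The labels and methods name a stranded mRNA kit, TopHat and Bowtie on hg19, SAMtools and HTSeq. The strand setting of HTSeq is not given in the sources used here, so overlapping and antisense genes are uncertain, and the methods also mention a 3′ end kit without naming samples. Groups came from the cell line label, and replicate numbers 1 and 2 from its letters A and B. The 3 libraries of HepG2S1 and HepG2S3 held 9851195 to 32008712 counts on genes and the HepG2 libraries 36639473 and 34847911, and depth limits mainly the low genes of HepG2S1.

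For CPM, counts were scaled to the sum over all genes of the library. Differences are on log2(CPM + 1), with a pseudocount of 1 CPM, which understates the change of low genes. The contrast of HepG2S1 and HepG2S3 was fitted with the quasi-likelihood test of edgeR 4.0.16 (R 4.3.3, limma 3.58.1) on the 5 HepG2-family libraries, after TMM scaling and filterByExpr, calling genes two-sided at 0.05 after Benjamini-Hochberg adjustment. It leaves 2 residual degrees of freedom, and the lone HepG2S1 library adds none. The SE given with a log2 fold change is its size divided by the square root of the F of this test. It is therefore not a separate estimate of error, and for genes with few counts it can be smaller than the counting error. Symbols, types and positions were matched by identifier for 45100 genes (84.3%) to a GENCODE annotation of GRCh37, and upstream sequences came from RefSeq. Listed genes without a matched identifier were not analysed here, and neither were chromosome Y genes. Some items are not reported here.

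The comparison, the gene lists and the rules were chosen with earlier results of these data known. Named are the 15 coding genes in each direction with the largest log2(CPM + 1) difference among those called with at least 5 CPM in the higher line and HepG2S1 outside both HepG2S3 libraries, up to 4 called members of each list or up to 2 by size, VIM, CDH1, CDH2, EPCAM, the DNMT and TET genes, and the 3 genes of highest CPM in each window whose median differed by 0.5 or more. Alternatives were DESeq2 1.42.0, other library sizes, filters, pseudocounts and sources of spread, thinned counts (seed 11), length and GC offsets, and each library left out in turn. Counts over coding genes alone and without HepG2 transcripts at trace level were added after seeing the data. Tables and plots were made with pandas 2.3.3, numpy 2.4.6 and matplotlib 3.10.9 under Python 3.11.15.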

Additional observations from a re-analysis of the deposited data

Results flagged for a closer look

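In 12 of the named genes HepG2S1 and HepG2S3 lay on opposite sides of both HepG2 libraries, and edgeR tested the difference between the lines. The log2 fold changes of HepG2S1 over HepG2S3 were 9.32 for POF1B, 8.19 for PRRG3, 10.5 for SPINK5, 8.19 for PTPRD, 5.09 for COL6A3 and 1.502 for MT-ATP8. They were -4.51 for CRYM, -1.46 for C1S, -4.00 for ZNF626, -3.67 for MAOA, -3.68 for ZNF429 and -3.21 for ZNF90. For SPINK5 and PRRG3 the HepG2 libraries had 3 counts or fewer and HepG2S3 1 or none, so no order of HepG2 and HepG2S3 can be read from them, and POF1B, with 4 and 5 counts in HepG2, was little above that level. For CRYM and ZNF90 the interval of HepG2S1, 0.104 to 0.895 and 4.38 to 7.38 CPM, covered both HepG2 values. MAOA in HepG2S3, at 75.2 and 72.4 CPM, was little above HepG2 library 2 at 70.9 CPM. The folds of genes with 3 counts or fewer in a line depend on the prior count and are no bounds. Over all 114 called genes the lines lay on opposite sides of both HepG2 libraries in 22, of which 3 were at least 2-fold from HepG2 each way. In HepG2S1, 28.5% of reads were not unique to a position, against 20.2% and 20.7% in HepG2, and the part of this in the results was not tested.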

How the results depend on the processing

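No paired analysis was possible because HepG2S1 has 1 library and shares no replicate number pair with HepG2S3. The 97 genes higher in HepG2S1 became 2519 with the spread from HepG2S1 and HepG2S3 only, 56 with the spread from all 21 libraries, 300 with DESeq2 and 62 with protein coding genes only, a count added after seeing the data. The 17 lower genes became 2738 with HepG2S1 and HepG2S3 only, 26 with at least 1 CPM in either line and 462 with DESeq2. Leaving out 1 library gave 31 to 2353 higher and 3 to 2768 lower genes, few without a HepG2S3 library and many without a HepG2 library. Of 37 named called genes, 10 kept their call without HepG2S3 library 1 and 12 without library 2. ATP8A2, DSP, ESRRG, PTPRD, SCIN and VASN kept it in all 15 settings. The genes at least 2-fold higher became 627 with a pseudocount of 0.1 CPM and 644 with none, and those lower 610 and 606. The 5 uncalled genes DNMT1, ZNF714, TET2, DNMT3A and DNMT3B changed sign. DNMT1 (0.02) went to -0.0153 with RLE, -0.0265 with total counts, -0.0559 without the filter, -0.0804 with all 21 libraries, -0.000748 without HepG2S3 library 1 (0.0446 without library 2), -0.0126 with the length trend removed and -0.0764 with DESeq2. ZNF714 (0.06) went to -0.0215 without the filter, -0.0466 with all 21 libraries and -0.0417 with DESeq2. TET2 (-0.02) went to 0.02004 with at least 1 CPM, 0.00447 with HepG2S1 and HepG2S3 only and 0.0520 without HepG2S3 library 2 (-0.0873 without library 1). DNMT3A (0.10) went to -0.00565 with all 21 libraries and -0.0723 without library 2 (0.289 without library 1), and DNMT3B (-0.06) to 0.151 without library 1 (-0.251 without library 2) and 0.0533 with thinned counts. The causes were not tested. Depth limits the genes under 0.305 CPM in HepG2S1.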
